A study of Mus musculus with 15 samples.

Results

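The unfolded protein response (UPR) is followed here through 10 genes in 5 sorted subtypes of murine mononuclear phagocytes. The genes were set by name: the sensors and transcription factors Xbp1, Ern1, Atf4, Atf6 and Ddit3, and the folding proteins Hspa5, Hsp90b1, Pdia4, Dnajb9 and Calr. All 10 were found by symbol among the 38924 gene identifiers of the deposited counts, and all 10 passed the filter on low counts, which 14456 genes passed in all. RNA was sequenced from naive female C57BL/6 mice aged 6 to 8 weeks. The 15 libraries comprise 3 of each subtype: CD8+ DCs, CD4+ DCs and Ly6C+ monocytes of the spleen, and CD103+ DCs and CD11b+ DCs of lung-draining lymph nodes (LN). CD8+ and CD103+ DCs form the DC1 lineage, and CD4+ and CD11b+ DCs the DC2 lineage. Each library was a pool of cells from 5 mice, LN and spleen came from different cohorts, and LN DCs alone were gated on high MHCII, so that organ, cohort and gate cannot be told apart. No mouse was treated, so every value is a resting level in sorted cells.

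The endoplasmic reticulum (ER) folds secreted and membrane proteins, and the UPR adjusts its capacity to its load. Of its sensors, IRE1 (encoded by Ern1) splices Xbp1 mRNA into the form that encodes an active transcription factor, PERK slows translation while favouring that of Atf4 and, through it, Ddit3 (CHOP), and ATF6 is cut in the Golgi to release a transcription factor. IRE1 and XBP1 are well known in plasma cells, and in CD8+ type DCs. Splicing of Xbp1, translation of Atf4 and cleavage of ATF6 leave no trace in counts per gene, so the levels below are those of total mRNA.

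The ER stress response element (ERSE) pairs a CCAAT box with a CCACG box across 9 bases and is the best known motif of chaperone promoters. Promoter sequences of 9 members were taken from RefSeq (assembly GRCm38.p6, the mm10 build), with Atf6 not used here. The letters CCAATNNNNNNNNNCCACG, searched on both strands of the 250 bases before the start, lay in 35 of 27025 genes (0.13%), among them Hspa5, Hsp90b1 and Calr. Hsp90b1 held 2 copies. The stretches below show the members with the motif, and 2 folding genes without it, Pdia4, which held CCAAT boxes and no CCACG, and Dnajb9, which held both boxes at other spacings. Each is written 5′ to 3′ on the gene's strand, and the start is that of RefSeq. For Hspa5 the stretch lies inside the Ensembl interval given for the gene below, since the annotations differ in their start. Capitals mark the 2 boxes of each ERSE in Hspa5, Hsp90b1 and Calr, whose other CCAAT boxes stay in lower case, and every CCAAT and CCACG box in Pdia4 and Dnajb9. A box on the opposite strand reads ATTGG or CGTGG.
Hspa5, chr2:34772020-34772049, plus strand, bases 70 to 41 before the start: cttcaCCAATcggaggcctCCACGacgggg
Hsp90b1, chr10:86705525-86705664, minus strand, bases 220 to 81: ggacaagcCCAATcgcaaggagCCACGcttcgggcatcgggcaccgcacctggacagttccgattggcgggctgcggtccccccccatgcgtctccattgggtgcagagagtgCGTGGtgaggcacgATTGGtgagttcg
Calr, chr8:84847042-84847111, minus strand, bases 180 to 111: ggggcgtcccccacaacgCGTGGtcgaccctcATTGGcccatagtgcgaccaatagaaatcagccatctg
Pdia4, chr6:47813553-47813632, minus strand, bases 120 to 41: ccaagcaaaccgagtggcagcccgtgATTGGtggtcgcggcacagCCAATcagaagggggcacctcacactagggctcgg
Dnajb9, chr12:44210069-44210188, minus strand, bases 120 to 1: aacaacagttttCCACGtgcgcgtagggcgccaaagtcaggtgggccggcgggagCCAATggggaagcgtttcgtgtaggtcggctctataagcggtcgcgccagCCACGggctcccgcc
The single boxes are common: CCAAT alone stood in 37.5% of all promoters and in 7 of 9 members, and CCACG alone in 31.0% and in 6 of 9, counts that include the boxes inside the ERSE. The core of the UPR element, TGACGTGG, was found in 0.603% of promoters, with 0 of 9 members. The shared core TGCATCA of the element bound by ATF4 and its partners was found in 3.1% of promoters, also with 0 of 9 members. These are matches of letters, and binding was not measured.

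Levels of different genes were compared in TPM, which divides by gene length and fixes the sum of each library. The 10 mRNAs together took 0.205 ± 0.00834% of all TPM in splenic CD8+ DCs (SD, n = 3), 0.141 ± 0.0129% in monocytes, 0.0974 ± 0.00703% in splenic CD4+ DCs, 0.0967 ± 0.00732% in LN CD11b+ DCs and 0.0817 ± 0.0121% in LN CD103+ DCs. The 3 libraries of splenic CD8+ DCs stood above all others, and the 3 monocyte libraries stood between them and the remaining DCs. The composition differed between these groups. In splenic CD8+ DCs the leading member was Hspa5, at 1035 ± 48.0 TPM, whereas in monocytes it was Xbp1 at 502 ± 62.8 TPM. Ern1 had the lowest TPM of the 10 in every DC subtype, at 3.18 ± 0.881 to 8.07 ± 1.66 TPM over the DC subtypes' means, and Ddit3 was at 10.5 ± 0.432 to 34.6 ± 8.42 TPM.

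**Figure D1:**
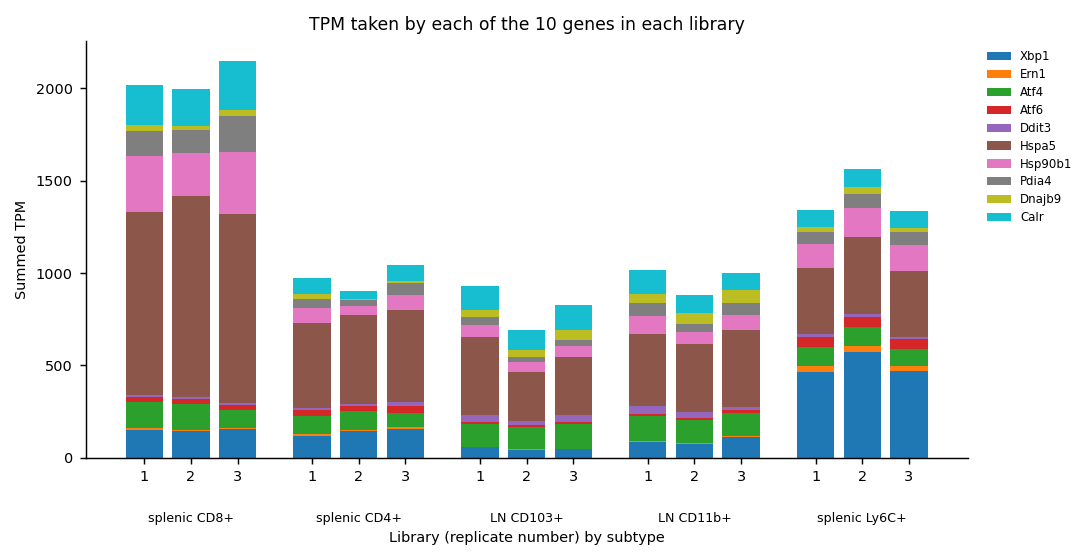
Stacked bars give the TPM of each of the 10 genes in each of the 15 libraries (y axis, summed TPM; x axis, replicate number within subtype). Splenic CD8+ libraries reach the highest sums, with Hspa5 as their widest segment, and the monocyte bars hold the widest Xbp1 segment.

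Libraries held 4531243 to 10233914 counts on genes, of which the 10 members took 5539 to 26507. The variance between pairs of replicates was 4.94 to 50.7 times that of counting error. Markers of the sorted subtypes lay where the labels put them for Cd8a (339 TPM in splenic CD8+ DCs), Cd4 (92.1 TPM in splenic CD4+ DCs), Itgam among LN DCs (41.7 in CD11b+ against 0.899 TPM in CD103+) and Ly6c2 (2678 TPM in monocytes). Itgae, which encodes CD103, was at 13.4 TPM in LN CD103+ DCs and at 55.7 TPM in splenic CD8+ DCs. The migratory DC markers Ccr7, Fscn1 and Ccl22 summed to 5862 to 11860.0 TPM in LN DCs and to at most 392 TPM elsewhere. A list of 13 genes known to respond to tissue digestion summed to 7747 to 10779 TPM in LN DCs, 2002 to 4066 TPM in splenic DCs and 6286 to 6546 TPM in splenic monocytes. The LN sum was carried by Hspa1a, Hspa1b and Junb. Between the organs, 5 of the 13 genes were called higher in LN and 1 lower in DC1 (Egr1, 4.23-fold, adjusted p = 5.48e-05 by edgeR), and 5 were called higher in DC2. Of all genes tested, 23.8% were called higher and 21.8% lower in LN in DC1, and 19.3% and 13.8% in DC2. T cell markers summed to 98.7 to 204 TPM in LN DCs and to at most 27.04 TPM in the other libraries. Of these, Cd3d, Cd3e, Cd3g, Lck, Cd28 and Trac were called higher in LN in both lineages. Cd5 was called lower in LN in DC2 (adjusted p = 0.0391 by edgeR) and was not called in DC1. The part of either list in the organ differences below was not tested. In these bulk libraries, fewer cells of a type and less RNA per cell cannot be told apart.

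All 10 members differed among the 5 subtypes in an edgeR quasi-likelihood model with a mean for each subtype, in which the adjusted p (Benjamini-Hochberg, over all genes tested) was 0.0299 for Atf4 and at most 6.96e-05 for the other 9. A difference was called where the adjusted p was below 0.05. Since 73.5% of all genes tested were called in the same test, a call among the 5 subtypes is common. Levels below are TMM-scaled CPM (counts relative to the library's total), given for replicates 1, 2 and 3 in turn, and fold changes come from the model, with the log2 fold change given with its standard error (log2 value ± SE).

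**Figure D2:**
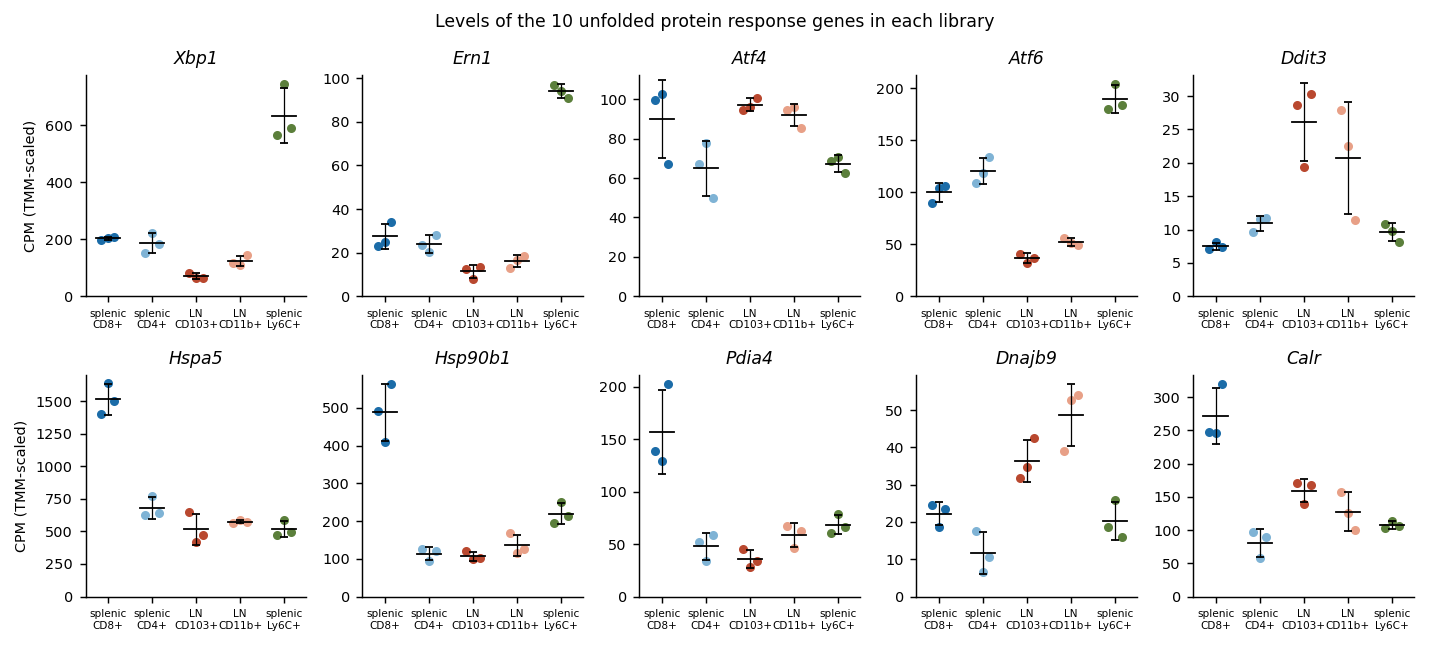
CPM of each of the 10 genes (y axis, linear, own scale per panel) in the 3 libraries of each subtype (points), with the mean and SD (bars). Xbp1, Ern1 and Atf6 are highest in monocytes, Hspa5, Hsp90b1, Pdia4 and Calr in splenic CD8+ DCs, Ddit3 in LN DCs and Dnajb9 in LN DCs.

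The mRNAs of Xbp1, Ern1 and Atf6, from the IRE1 and ATF6 arms, were highest in monocytes and lowest in LN DCs. The activity of these arms was not measured. Xbp1 (ENSMUSG00000020484, chr11:5520659-5525893, mm10), the transcription factor made active by IRE1, was at 564, 744 and 591 CPM in monocytes, 199, 203 and 208 CPM in CD8+ DCs of the spleen and 150.4, 221 and 185 CPM in CD4+ DCs of the spleen. In LN it was at 117, 109 and 144 CPM in CD11b+ DCs and 82.6, 63.7 and 63.5 CPM in CD103+ DCs. Monocytes stood above every DC library and the 6 splenic DC libraries above the 6 LN DC libraries. Each step of this order was called except that between the splenic DC subtypes, whose libraries overlapped (adjusted p = 0.644). The fold between monocytes and LN CD103+ DCs, the ends of the order, was 9.06 (adjusted p = 3.34e-10).

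Ern1 (ENSMUSG00000020715, chr11:106394650-106487852), the IRE1 sensor itself, kept the same order of means. It was at 97.2, 94.4 and 90.9 CPM in monocytes, 23.2, 25.1 and 34.0 CPM in CD8+ DCs of the spleen, 23.5, 20.1 and 28.1 CPM in CD4+ DCs of the spleen, 13.01, 16.6 and 18.6 CPM in LN DCs of the CD11b+ subtype and 12.7, 8.08 and 13.6 CPM in LN DCs of the CD103+ subtype. Monocytes stood 8.25-fold above LN CD103+ DCs (adjusted p = 6.3e-09), and all splenic DC libraries were above all LN libraries. Neighbouring DC subtypes in this order did not pass the test (adjusted p = 0.565 within spleen, 0.224 within LN and 0.0681 between the DC2 subtypes).

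Atf6 (ENSMUSG00000026663, chr1:170704674-170867771), whose product is the Golgi-cleaved sensor, was at 179.6, 204 and 184 CPM in monocytes, 109, 118 and 134 CPM in CD4+ DCs of the spleen and 89.3, 104 and 105 CPM in CD8+ DCs of the spleen. Its LN levels were 55.8, 51.6 and 49.1 CPM in CD11b+ DCs and 40.9, 31.5 and 36.8 CPM in CD103+ DCs. The subtypes did not overlap anywhere in this order, though the steps within spleen (adjusted p = 0.247) and within LN (adjusted p = 0.0519) were not called.

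Atf4 had the smallest ratio of highest to lowest subtype mean CPM of the 10, and Ddit3 was called higher in LN than in spleen in both lineages, where Xbp1 was called lower. Atf4 (ENSMUSG00000042406, chr15:80255184-80257540), the transcription factor of the PERK arm, was at 94.5, 96.1 and 101 CPM in LN DCs of the CD103+ subtype, 94.5, 96.0 and 85.5 CPM in LN DCs of the CD11b+ subtype and 99.7, 103 and 67.3 CPM in CD8+ DCs of the spleen. It was at 68.4, 70.9 and 62.8 CPM in monocytes and 67.3, 77.6 and 49.8 CPM in CD4+ DCs of the spleen. Replicate 3 of both splenic DC subtypes was the lowest of its subtype, and the splenic DC groups overlapped.

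Ddit3 (ENSMUSG00000025408, chr10:127290774-127296288) encodes CHOP, a transcription factor known for its part in cell death under lasting ER stress. It was at 28.6, 19.4 and 30.3 CPM in LN DCs of the CD103+ subtype and 27.96, 22.6 and 11.5 CPM in LN DCs of the CD11b+ subtype, against 9.67, 11.6 and 11.7 CPM in CD4+ DCs of the spleen, 10.8, 9.82 and 8.16 CPM in monocytes and 7.05, 8.09 and 7.33 CPM in CD8+ DCs of the spleen. All LN libraries except CD11b+ replicate 3 were above every splenic library. Of its exon bases 4.73% are shared with other genes, including Mars on the opposite strand, and the counting did not use strand.

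Among the folding proteins, Hspa5, Hsp90b1, Pdia4 and Calr had the same leading subtype, splenic CD8+ DCs. Hspa5 (ENSMUSG00000026864, chr2:34771970-34776531) encodes BiP, the main ER chaperone, which also holds the sensors inactive. It was at 1399.6, 1639 and 1504 CPM in CD8+ DCs of the spleen, 623, 774 and 641 CPM in CD4+ DCs of the spleen, 567, 588 and 573 CPM in LN DCs of the CD11b+ subtype, 651, 421 and 476 CPM in LN DCs of the CD103+ subtype and 469.7, 586 and 493 CPM in monocytes. Every splenic CD8+ library was above every library of the other subtypes, and no pair of the other 4 subtypes was called by edgeR (adjusted p of at least 0.0935), though DESeq2 called monocytes lower than splenic CD4+ DCs (0.0293).

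Hsp90b1 (ENSMUSG00000020048, chr10:86690209-86705509) encodes GRP94, the ER chaperone that Toll-like receptors and integrins need to fold. Its levels were 492, 409.6 and 562 CPM in CD8+ DCs of the spleen, 195, 250.1 and 215 CPM in monocytes, 167, 115 and 126 CPM in LN DCs of the CD11b+ subtype, 126, 93.8 and 121 CPM in CD4+ DCs of the spleen and 119.6, 98.9 and 101 CPM in LN DCs of the CD103+ subtype. Monocytes lay between splenic CD8+ DCs and the rest without overlapping either, and the lower 3 subtypes overlapped. Of its exon bases 15.67% are shared with other genes, with 1810014B01Rik on the opposite strand.

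Pdia4 (ENSMUSG00000025823, chr6:47796142-47813512), a protein disulphide isomerase known as ERp72, was at 138, 129 and 202 CPM in CD8+ DCs of the spleen, 60.4, 78.4 and 66.7 CPM in monocytes, 67.1, 46.0 and 62.5 CPM in LN DCs of the CD11b+ subtype, 51.7, 33.8 and 58.3 CPM in CD4+ DCs of the spleen and 45.4, 28.2 and 34.1 CPM in LN DCs of the CD103+ subtype. Calr (ENSMUSG00000003814, chr8:84841850-84846934), the lectin chaperone calreticulin of the peptide loading complex, was at 248, 247 and 321 CPM in CD8+ DCs of the spleen and 171, 139.6 and 168 CPM in LN DCs of the CD103+ subtype. It was at 158, 126 and 99.9 CPM in LN DCs of the CD11b+ subtype, 103, 114 and 107 CPM in monocytes and 97.2, 57.3 and 89.4 CPM in CD4+ DCs of the spleen. For both genes the splenic CD8+ libraries were above all others, while the order below them differed, Calr being higher in LN CD103+ DCs than in monocytes (adjusted p = 0.0339) and Pdia4 lower (adjusted p = 0.00386).

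Dnajb9 (ENSMUSG00000014905, chr12:44205897-44210068), the co-chaperone ERdj4 that brings BiP back to IRE1, did not share that pattern. It was at 39.2, 52.6 and 54.1 CPM in LN DCs of the CD11b+ subtype and 31.8, 34.6 and 42.6 CPM in LN DCs of the CD103+ subtype, above 24.5, 18.6 and 23.6 CPM in CD8+ DCs of the spleen, 18.7, 25.9 and 16.1 CPM in monocytes and 17.7, 6.65 and 10.5 CPM in CD4+ DCs of the spleen. All 6 LN libraries were above all 9 splenic libraries, and the monocytes did not differ from splenic CD8+ DCs beyond the spread (adjusted p = 0.747).

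**Figure D3:**
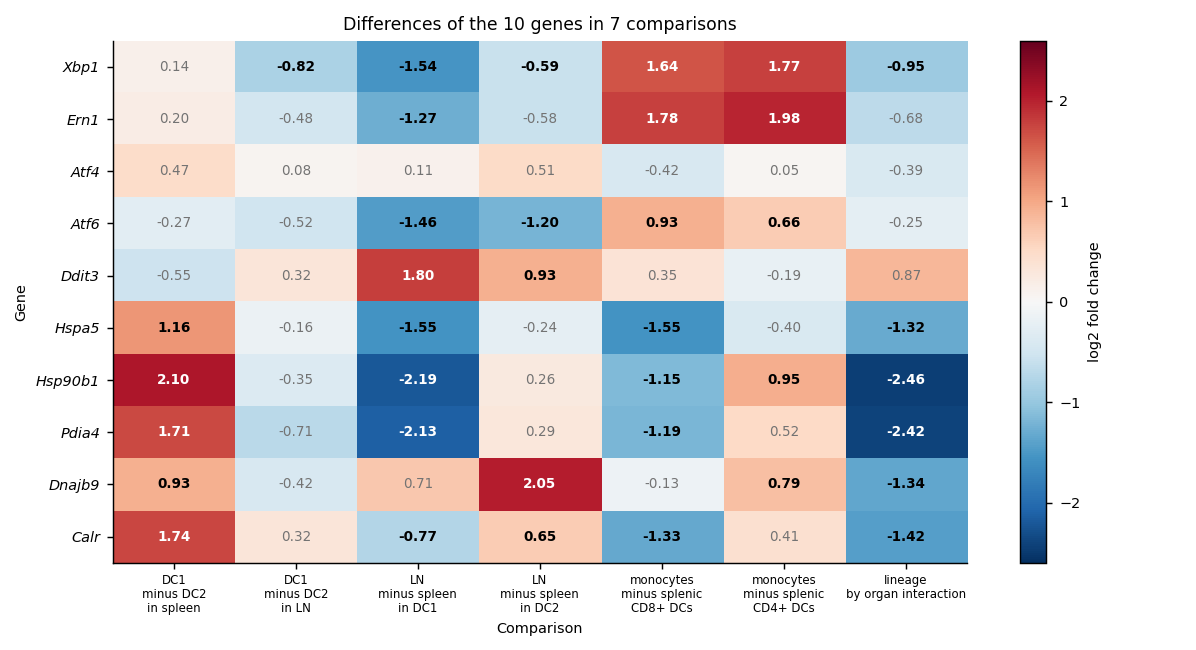
Log2 fold change of each gene (rows) in the 6 pairwise comparisons and their interaction (columns), coloured from blue (lower) to red (higher), with bold values where the adjusted p was below 0.05. Hsp90b1, Pdia4 and Calr run from red in spleen DC1 minus DC2 to blue in the organ difference of DC1, and Xbp1 and Ern1 are blue in both organ columns and red in both monocyte columns.

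The comparison of splenic CD8+ with splenic CD4+ DCs asks how the lineages differ within an organ. The 5 genes of folding proteins were higher in CD8+ DCs, while the 5 sensor and transcription factor genes were not called. Hsp90b1 was 4.298-fold higher (log2 2.10 ± 0.20, adjusted p = 4.4e-07), Calr 3.34-fold (log2 1.74 ± 0.22, adjusted p = 1.01e-05), Pdia4 3.27-fold (log2 1.71 ± 0.25, adjusted p = 5.26e-05), Hspa5 2.23-fold (log2 1.16 ± 0.19, adjusted p = 0.000186) and Dnajb9 1.90-fold (log2 0.93 ± 0.30, adjusted p = 0.0261). In each of these 5 genes all CD8+ libraries were above all CD4+ libraries, though the share of all genes that separate so was not counted. Thus 5 of 10 members were called higher, against 13.1% of all genes tested, and 0 were called lower by edgeR, against 14.4%, with 0 lower also at an unadjusted p below 0.05, by DESeq2 and by limma on TPM. Xbp1 (log2 fold change 0.14) and Ern1 (0.20) overlapped between the subtypes, and Atf6 (-0.27) and Ddit3 (-0.55) lay lower in all CD8+ libraries without a call. The median over the members was 0.698, beside 0 over all genes. With the replicate number as a block, Atf4 was called too (log2 fold change 0.47, adjusted p = 0.084 without and 0.0422 with the block). Markers of plasmacytoid DCs, a secretory cell type, moved in part with these genes. Ccr9 was 5.75-fold (edgeR, adjusted p = 2.36e-05) and Siglech 7.07-fold higher in CD8+ DCs (0.0287, with overlapping libraries), Spib was 2.69-fold lower (0.000218), and Tcf4 and Ly6d were not called. The 7 genes of that list summed to 57.7 to 131 TPM in CD8+ and 60.7 to 68.9 TPM in CD4+ DCs, and their part in the chaperone levels was not tested. The call of Dnajb9 was lost without CD8+ replicate 1 or 3 or CD4+ replicate 2 or 3 (adjusted p = 0.0669 to 0.117).

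Most calls in the wider secretory machinery had the same direction. The counts below stand beside 13.1% of all genes called higher and 14.4% called lower. Of 23 other ER chaperones and folding enzymes tested (of 24 listed), 15 were called higher in splenic CD8+ DCs and 0 lower, with a median log2 fold change of 1.17. Ppib, among those called higher, shares 54.17% of its exon bases with Snx22 on the opposite strand, and the counting did not use strand. Of 25 genes of the translocon and of entry into the secretory path (of 26 listed), 17 were higher and 0 lower, with a median of 0.798. Pdia5, a further disulphide isomerase, was at 221 ± 50.3 CPM in CD8+ and 1.14 ± 1.32 CPM in CD4+ DCs (SD, n = 3, adjusted p = 1.02e-08), and Manf, a small ER protein released under stress, was 4.86-fold higher in CD8+ DCs. Of 14 genes of ER-associated degradation (ERAD), 3 were higher and 0 lower. Of these 3 lists, 1 translocon gene and no other was lower at an unadjusted p below 0.05 in edgeR, and 0 were lower by DESeq2. Among 17 known targets of ATF4 and CHOP (of 19 listed), 2 were higher and 4 lower, led by Slc7a11, the cystine transporter, which was 10.9-fold lower in CD8+ DCs, and Sesn2, a stress-induced sestrin, which was 3.99-fold lower. Of 13 other sensors and signalling genes, 3 were higher and 2 lower, and Eif2ak3, which encodes PERK, was not called (adjusted p = 0.401).

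Between the LN lineages few members were called. Xbp1 was 1.76-fold lower in CD103+ than in CD11b+ DCs (log2 -0.82 ± 0.19, adjusted p = 0.00785), with all 3 CD103+ libraries below all CD11b+ libraries. It was the only member called, so 1 of 10 was lower against 7.73% of all genes, and 0 were higher by edgeR against 5.22%, with 0 higher also at an unadjusted p below 0.05, by DESeq2 and by limma on TPM. Atf6 (log2 fold change -0.52, adjusted p = 0.0519) and Pdia4 (-0.71, adjusted p = 0.0709) also lay lower in all CD103+ libraries. Both were called with the replicate number as a block (edgeR, adjusted p = 0.0388 and 0.033) and by DESeq2 (0.0158 and 0.0492). The members' median was -0.386, beside -0.00545 over all genes. Replicate 1 of LN CD103+ DCs held B cell markers at 314 TPM in sum, against 19.3 and 27.2 TPM in the other CD103+ libraries, and Xbp1 was called without it as well. Their part in the levels of that library was not tested.

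The pathway lists showed few calls between the LN lineages, where 5.22% of all genes were called higher in CD103+ DCs and 7.73% lower. Of the chaperones 1 was higher in CD103+ DCs and 0 lower by edgeR (2 at an unadjusted p below 0.05, and 0 by DESeq2), and of the translocon genes 1 was higher and 1 lower. Sec24d, a subunit of the COPII coat, was 3.53-fold higher, and its exons overlap Mettl14 over 8.38% of their bases. Mthfd2, a mitochondrial folate enzyme among the ATF4 targets, was 2.404-fold higher. Slc7a11 was 5.32-fold and Nupr1, a stress-induced nuclear protein, 4.55-fold lower in CD103+ DCs.

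The organ comparison within DC1 gave the most calls, 8 of 10 members. LN CD103+ DCs had lower Hspa5, Hsp90b1, Pdia4, Calr, Xbp1, Ern1 and Atf6 mRNA than splenic CD8+ DCs, and higher Ddit3. Hsp90b1 was 4.58-fold lower (log2 -2.19 ± 0.20, adjusted p = 7.24e-08), Pdia4 4.37-fold (log2 -2.13 ± 0.25, adjusted p = 1.72e-06) and Hspa5 2.94-fold (log2 -1.55 ± 0.19, adjusted p = 2.76e-06). Calr was 1.70-fold lower (log2 -0.77 ± 0.21, adjusted p = 0.00648), Xbp1 2.91-fold (log2 -1.54 ± 0.20, adjusted p = 3.73e-06), Atf6 2.74-fold (log2 -1.46 ± 0.17, adjusted p = 1.52e-06) and Ern1 2.41-fold (log2 -1.27 ± 0.24, adjusted p = 0.000276). Ddit3 was 3.48-fold higher in LN (log2 1.80 ± 0.30, adjusted p = 7.73e-05). So 7 of 10 members were lower in LN, against 21.8% of all genes tested, and 1 was higher, against 23.8%. The organs did not overlap in any of the 8, and how many of all genes separate in this way was not counted. Atf4 (log2 fold change 0.11) was not called, and Dnajb9 was higher in all LN libraries at an adjusted p of 0.0513, and at 0.0282 by DESeq2. The median over the members was -1.36, beside 0.00483 over all genes. Of the plasmacytoid DC markers, Ccr9, Siglech and Tcf4 were called lower in LN DC1 and Spib and Ly6d higher, and the list summed to 110.2 to 214 TPM there. Their part was not tested.

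Within DC2 the organ difference took another form. Dnajb9 was 4.14-fold higher in LN CD11b+ than in splenic CD4+ DCs (log2 2.05 ± 0.30, adjusted p = 3.26e-05), Ddit3 1.90-fold (log2 0.93 ± 0.30, adjusted p = 0.0208) and Calr 1.57-fold (log2 0.65 ± 0.22, adjusted p = 0.0254). Atf6 was 2.30-fold lower in LN (log2 -1.20 ± 0.17, adjusted p = 2.32e-05) and Xbp1 1.504-fold (log2 -0.59 ± 0.19, adjusted p = 0.0244). Hence 3 of 10 members were higher, against 19.3% of all genes, and 2 were lower, against 13.8%. Hspa5 (log2 fold change -0.24), Hsp90b1 (0.26) and Pdia4 (0.29) did not pass the test. The members' median was 0.276, beside 0.0497 over all genes. With the replicate number as a block, Atf4 (log2 fold change 0.51 without the block, adjusted p = 0.0571 without and 0.0235 with it) and Ern1 (-0.58, 0.0681 and 0.0421) were called too. In a fit of the 6 libraries compared, only Dnajb9 and Atf6 were called.

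Of the DC2 organ calls, those of Dnajb9 and Atf6 were kept whichever single library was left out. That of Xbp1 was lost without CD4+ replicate 2 or CD11b+ replicate 1 or 2 (adjusted p = 0.0807 to 0.102), that of Ddit3 without CD4+ replicate 1 or CD11b+ replicate 1 or 2 (0.0616 to 0.14) and that of Calr without CD4+ replicate 2 or CD11b+ replicate 1 (0.112 and 0.142).

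Whether the organ difference itself differed between the lineages was tested as an interaction, the LN minus spleen difference of DC1 less that of DC2. In 6 of 10 members it was lower in DC1, against 6.03% of all genes, and in 0 it was higher by edgeR, against 5.17%, with 0 higher also at an unadjusted p below 0.05, by DESeq2 and by limma on TPM. It was widest for Hsp90b1 (log2 -2.46 ± 0.28, adjusted p = 1.55e-05) and Pdia4 (log2 -2.42 ± 0.35, adjusted p = 0.00018), both called lower in LN in DC1 and not called in DC2. For Calr (log2 -1.42 ± 0.30, adjusted p = 0.00464) the organ difference had opposite called directions in the lineages. For Hspa5 (log2 -1.32 ± 0.27, adjusted p = 0.0034) and Xbp1 (log2 -0.95 ± 0.27, adjusted p = 0.0293) both organ differences were negative and DC1's was the wider, and for Dnajb9 (log2 -1.34 ± 0.41, adjusted p = 0.0402) both were positive and DC2's was the wider. Of these organ differences, those of Hspa5 in DC2 and of Dnajb9 in DC1 were not called by edgeR. Atf6 (log2 difference -0.25, adjusted p = 0.56), Ern1 (-0.68, 0.215), Atf4 (-0.39, 0.412) and Ddit3 (0.87, 0.201) were not called. The members' median was -1.13, beside -0.0666 over all genes. These comparisons share libraries with those above. The interaction of Xbp1 was lost without splenic CD8+ replicate 2 or 3, CD4+ replicate 1, CD103+ replicate 2 or 3 or CD11b+ replicate 3 (adjusted p = 0.0524 to 0.0834). That of Dnajb9 was lost without CD8+ replicate 1 or 3, CD4+ replicate 2 or 3, CD103+ replicate 1 or 2, CD11b+ replicate 2 or 3 or monocyte replicate 1 (adjusted p = 0.0532 to 0.0907).

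**Figure D4:**
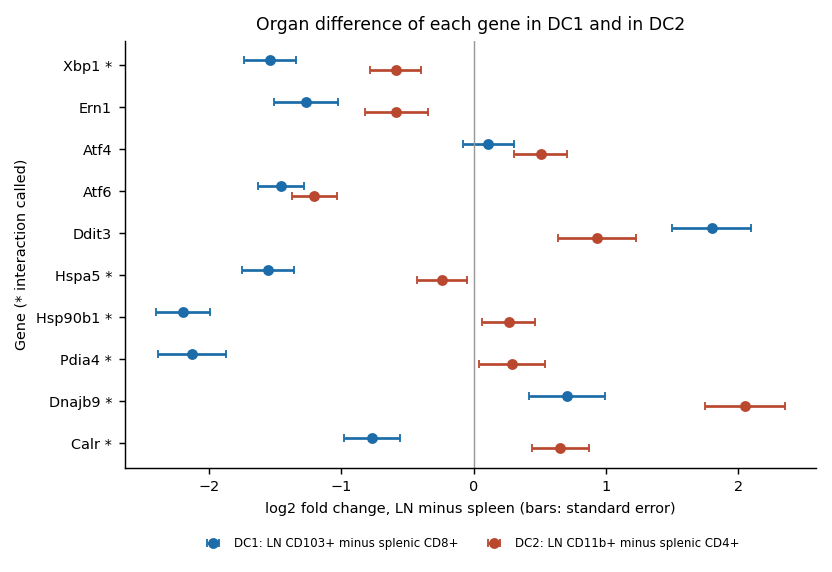
Log2 fold change between LN and spleen (x axis) with its standard error (bars) for each gene in DC1 (blue) and DC2 (red), with a star on genes whose interaction was called. Hsp90b1 and Pdia4 lie near -2.19 and -2.13 in DC1 and just above 0 in DC2, and Ddit3 lies above 0 in both.

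Most calls among the other chaperone and translocon genes had the direction of Hspa5, Hsp90b1 and Pdia4. In the DC1 organ comparison 16 of 23 chaperones were lower in LN and 2 higher (median -1.4), and 19 of 25 translocon genes were lower and 1 higher (median -0.923). In DC2 the chaperones gave 1 lower and 4 higher and the translocon genes 1 lower and 2 higher. Of all genes tested, 21.8% were lower and 23.8% higher in LN DC1, and 13.8% and 19.3% in LN DC2. The DC2 counts of both lists do not exceed these shares. A called interaction was negative in 6.03% of all genes and positive in 5.17%. The interaction was negative and called in 12 of 23 chaperones and 12 of 25 translocon genes, with 0 called positive in either by edgeR (1 chaperone at an unadjusted p below 0.05, and 0 by DESeq2). Pdia5 was 14.4-fold lower in LN DC1 and Rpn1, a subunit of the oligosaccharyltransferase, 6.06-fold. Exons of Rpn1, Manf and Ppib overlap those of other genes over 3.6%, 4.14% and 54.17% of their bases.

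Of the 17 targets of ATF4 and CHOP tested, 7 were higher and 4 lower in LN DC1, beside 23.8% and 21.8% of all genes, and 6 were higher and 3 lower in LN DC2, beside 19.3% and 13.8%. The lower counts are near the share of all genes. Slc7a11 was 21.2-fold higher in LN DC1 and 10.4-fold in LN DC2, and Nupr1 6.39-fold higher in LN DC2. Ddit4, an inhibitor of mTORC1, was 4.93-fold lower in LN DC2. Ppp1r15a, which encodes GADD34, the phosphatase subunit that reverses the translation block of PERK, was at 752 ± 47.2 CPM in LN CD103+ and 81.1 ± 11.01 CPM in CD8+ DCs of the spleen (SD, n = 3, adjusted p = 1.2e-09). It was also 5.43-fold higher in LN DC2 (adjusted p = 5.49e-08). Among the kinases that share the PERK substrate, Eif2ak4 (GCN2, an amino acid sensor) was 2.13-fold lower in LN DC2, and Eif2ak3 was lower there as well (log2 fold change -0.63, adjusted p = 0.0412) with overlapping libraries. The summed digestion-response genes given above were also higher in LN than in splenic DCs, with Egr1 lower in LN DC1.

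**Figure D5:**
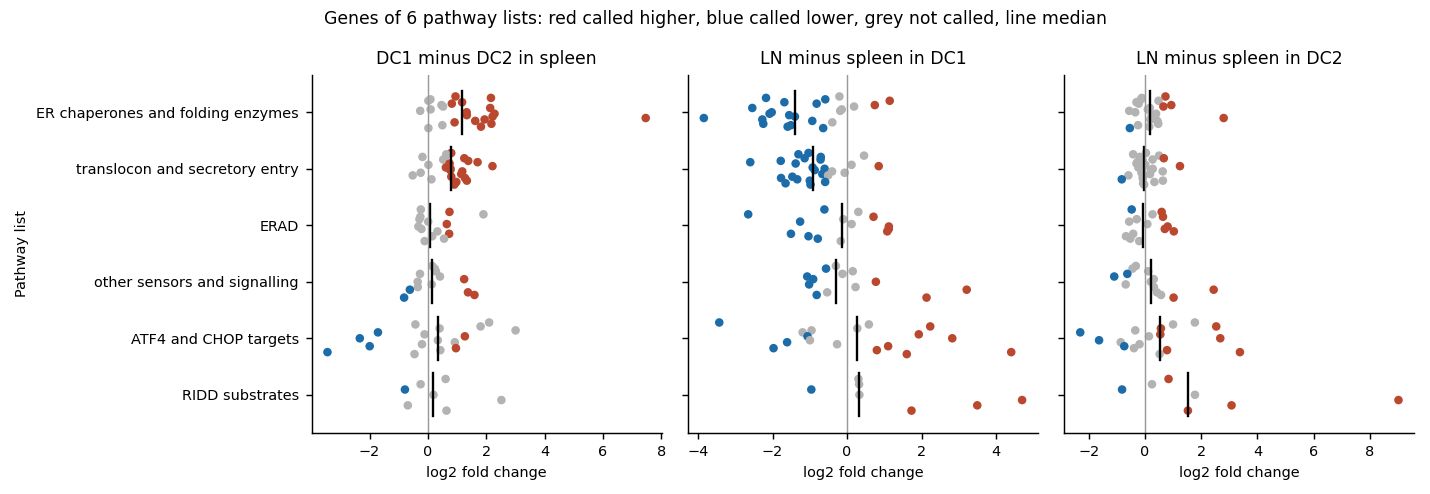
Log2 fold change (x axis) of each tested gene of 6 pathway lists (y axis) in 3 comparisons, with genes called higher in red, called lower in blue, others in grey, and the list median as a line. Most called chaperone and translocon genes lie right of 0 in spleen DC1 minus DC2 and left of 0 in the DC1 organ difference. The point at 9.01 is Scara3, which had no count in splenic CD4+ DCs, so its place depends on the prior count of the fit and is no bound.

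Monocytes were set against each splenic DC subtype, which came from the same organ. The monocytes were enriched with CD11b beads and the DCs with CD11c beads, and only the monocyte counts were summed over runs. Cell type, enrichment and sequencing run therefore cannot be told apart here. Xbp1, Ern1 and Atf6 were higher in monocytes in both comparisons, and Hspa5, Hsp90b1, Pdia4 and Calr were lower than in CD8+ DCs and not called lower than in CD4+ DCs. Xbp1 was 3.11-fold higher than in CD8+ DCs (log2 1.64 ± 0.20, adjusted p = 1.61e-06) and 3.42-fold higher than in CD4+ DCs (log2 1.77 ± 0.20, adjusted p = 7.15e-07). Ern1 was 3.43-fold (log2 1.78 ± 0.23, adjusted p = 5.07e-06) and 3.94-fold higher (log2 1.98 ± 0.24, adjusted p = 1.76e-06). Atf6 was 1.90-fold (log2 0.93 ± 0.17, adjusted p = 0.000189) and 1.57-fold higher (log2 0.66 ± 0.17, adjusted p = 0.00354). In all 3 genes every monocyte library was above every splenic DC library, a separation whose share over all genes was not counted.

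Against CD8+ DCs, 3 of 10 members were higher (20.4% of all genes tested) and 4 were lower (21.7%). The lower ones were Hspa5 (2.93-fold, adjusted p = 2.73e-06), Calr (2.52-fold, 6.13e-05), Pdia4 (2.28-fold, 0.000655) and Hsp90b1 (2.22-fold, 0.00011). The members' median was -0.275, beside -0.0434 over all genes. Against CD4+ DCs, 5 of 10 were higher (23.8%) and 0 lower by edgeR (24.2%). At an unadjusted p below 0.05 the count of lower members was also 0, and by limma on TPM 0, while DESeq2 called Hspa5 lower (adjusted p = 0.0293). Hsp90b1 was 1.94-fold higher than in CD4+ DCs (log2 0.95 ± 0.20, adjusted p = 0.000667). Dnajb9 was 1.73-fold higher (log2 0.79 ± 0.30, adjusted p = 0.0354) with overlapping libraries, a call lost without CD4+ replicate 2 or 3 or monocyte replicate 1 or 2 (adjusted p = 0.052 to 0.178). The median was 0.586, beside -0.00719 over all genes. Atf4 and Ddit3 were not called against either splenic DC subtype.

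The chaperone list stood between the splenic DC subtypes in monocytes. Of 23 genes, 0 were higher and 10 lower than in CD8+ DCs, and 10 were higher and 0 lower than in CD4+ DCs. For the 25 translocon genes these counts were 0 and 5, then 13 and 1. Of all genes tested, 20.4% were higher and 21.7% lower than in CD8+ DCs, and 23.8% higher and 24.2% lower than in CD4+ DCs. The count of translocon genes lower than in CD8+ DCs is near the share of all genes. Neither list had a gene higher than in CD8+ DCs at an unadjusted p below 0.05 or by DESeq2, and 2 chaperones were lower than in CD4+ DCs at an unadjusted p below 0.05 in edgeR and 2 by DESeq2. Pdia5 was 78.1-fold and Creld2, an ER protein that assists disulphide exchange, 7.33-fold lower than in CD8+ DCs. Among the ATF4 and CHOP targets, Nupr1 was at 185 ± 22.997 CPM in monocytes against 1.25 ± 1.96 CPM in CD8+ and 5.99 ± 1.04 CPM in CD4+ DCs (SD, n = 3, adjusted p = 8.91e-08 and 1.78e-06). Atf3, a stress-induced transcription factor, was 6.32-fold higher than in CD4+ DCs, while Sesn2 was 2.96-fold and Mthfd2 2.45-fold lower. Hgsnat, a lysosomal enzyme whose mRNA IRE1 is known to cut, was 9.64-fold higher than in CD8+ DCs (adjusted p = 4.68e-11).

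Markers of other cells that express much Xbp1 or could enter the sort were measured beside these values. The plasma cell list (8 genes) summed to 1644 to 3110.0 TPM in monocytes and 278 to 1198 TPM in the DC libraries. Of its 7 genes tested, Igha, Jchain, Igkc and Sdc1 were called higher in monocytes than in both splenic DC subtypes and Mzb1 higher than in CD8+ DCs (edgeR, adjusted p = 0.0133) but not than in CD4+ DCs (0.0838), while Ighm and Ighg2c were not called. Igha was at 824 TPM and Jchain at 54.3 TPM in monocytes, and Tnfrsf17, the receptor BCMA, was at 1.52 TPM in monocytes and at 0 in all 12 DC libraries. Mzb1, an ER protein of plasma cells, was at 10.03 TPM in monocytes, 0.750 and 2.31 TPM in splenic CD8+ and CD4+ DCs, and 12.2 and 13.1 TPM in LN CD103+ and CD11b+ DCs. The plasmacytoid DC list summed to 22.8 to 29.9 TPM in monocytes, with Ccr9, Siglech and Spib called lower than in both splenic DC subtypes. The neutrophil list summed to 771 to 1198 TPM in monocytes and at most 5.63 TPM in DCs. Its S100a8, S100a9, Mmp8, Ngp, Camp and Ltf were called higher in monocytes than in both splenic DC subtypes. Cxcr2, at 0.382 TPM in monocytes and 1.78 TPM in LN CD11b+ DCs, was not called against either. Ly6g, at 1.71 TPM in monocytes and 0 in the DC subtypes, did not pass the filter. The part of cells of any of these types in the monocyte levels was not tested.

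As a description over the 15 libraries, the genes whose log2 CPM followed Xbp1 most closely were Mfsd11 (Pearson's r = 0.98), Tnfrsf1a (0.977) and Tpd52 (0.976). Those nearest to Ddit3 were Tead1 (0.941), Mvk (0.934) and Cacnb1 (0.929), and those nearest to Hspa5 were Arsb (0.954), Fam91a1 (0.945) and Nsun2 (0.942). Among the members, Xbp1 correlated with Ern1 at 0.963 and with Atf6 at 0.933, and Hsp90b1 with Pdia4 at 0.957. Hspa5 correlated with Hsp90b1 at 0.778. After the subtype means were taken out, so that the points shared only their library, these values were 0.159 for Xbp1 and Ern1, 0.452 for Xbp1 and Atf6, 0.87 for Hsp90b1 and Pdia4 and 0.0771 for Hspa5 and Hsp90b1.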

How the data were processed

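RNA-seq of 15 murine libraries was used, grouped by sample title into 5 subtypes of 3. The deposited count values are raw reads per Ensembl gene. For these the authors aligned Ion Torrent reads to mm10 (STAR 2.4.0j) and ran featureCounts (Subread 1.5.2) without strand, a read over several genes counting for each. The TPM values were computed by the authors from counts and exon lengths and deposited. Recomputed TPM differed from them by at most 9.6e-10, and counts summed by run matched in all 15 libraries. Symbols were found for 37607 identifiers (96.6%).

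Testing used edgeR 4.0.16 under R 4.3.3 (quasi-likelihood, 1 mean per subtype over all 15 libraries, TMM factors 0.883 to 1.1, more than 1 CPM in at least 3 libraries, common dispersion 0.0681, 10 residual degrees of freedom, Benjamini-Hochberg over 14456 genes, threshold 0.05). The test recovered known changes on simulated data, which were drawn independently with a single dispersion and raised in splenic CD8+ DCs alone. Correlated libraries and the interaction were not simulated, so that trial does not cover them. Standard errors were taken from the fold change and its p-value, and log2 CPM used a prior count of 2. An exact permutation test of 3 against 3 libraries cannot go below 0.1. The members and lists were chosen with earlier results of these data known. The text names all members and the 3 genes correlating best with Xbp1, Ddit3 and Hspa5. It also names the 2 pathway genes with the largest called change in each direction per pairwise comparison (with 10 CPM or more where higher). Scara3, Sparc, Pdgfrb, Bloc1s1, Ppib, Eif2ak3 and further values of genes so named were added after their values were seen. Labels name no subject for these libraries, so the study's random intercept for subject was not fitted. Of 30 pairs of same-numbered libraries checked, the correlation of deviations was over 0.1 in all 3 pairs for splenic CD8+ and CD4+ DCs (correlations 0.162, 0.339 and 0.375), LN CD103+ and CD11b+ DCs (0.222, 0.179 and 0.259) and splenic CD4+ and LN CD11b+ DCs (0.197, 0.243 and 0.266), so blocked values are given there where they change a call. It was also over 0.1 for splenic CD4+ and LN CD103+ DCs (0.117, 0.124 and 0.146), which meet only in the interaction, where the block changed no member's call. The alternatives were DESeq2 1.42.0, limma 3.58.1 on log2(TPM + 1) and log2(TPM + 0.1), other filters, fits of only the subtypes compared, 1 run of each monocyte library, replicate blocks and leaving out each library. Promoter letters came from RefSeq.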

Additional observations from a re-analysis of the deposited data

Results flagged for a closer look

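For 6 genes the difference between LN and spleen differed between DC1 and DC2 in the interaction test of edgeR (adjusted over 14456 genes, 3 libraries per subtype). All 6 were lower in DC1, a direction called in 6.03% of all genes tested, against 5.17% called higher. The calls of Xbp1 and Dnajb9 were each lost when some single libraries were left out. The value is the organ difference of DC1 less that of DC2 on the log2 scale. It was -2.46 for Hsp90b1 and -2.42 for Pdia4, which were lower in LN in DC1 and not called in DC2. It was -1.42 for Calr, lower in LN DC1 and higher in LN DC2. It was -1.32 for Hspa5 and -0.95 for Xbp1, whose organ differences were negative in both lineages, and -1.34 for Dnajb9, whose organ differences were positive in both. The organ differences of Hspa5 in DC2 and of Dnajb9 in DC1 were not called by edgeR. The comparison sets LN, its cohort and its MHCII-high gate together against spleen in each lineage, so these cannot be told apart.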

How the results depend on the processing

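No member changed direction in a called comparison under any alternative run. The count of members called stayed within 1.5 times its value in all settings except these. For LN DC1 against DC2 it was 1, and it was 3 with the replicate block, 3 with the replicate block within organ, 3 by DESeq2, and 2 without a filter on low counts (23169 genes), with the filterByExpr filter (13888 genes), and by limma on log2(TPM + 1) or log2(TPM + 0.1). For the DC2 organ difference it was 5, and 2 in a fit of only the libraries compared, which leaves fewer residual degrees of freedom. Over the 6 pathway lists together, 9 genes were called between the LN lineages and 14 with the replicate block within organ, and 32 in the DC2 organ difference and 20 with only the libraries compared; the cause was not tested.

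Leaving out each library in turn gave 9 to 10 members called in any difference, 4 to 5 for spleen DC1 against DC2, 1 to 3 for LN DC1 against DC2, 8 to 9 and 2 to 6 for the organ difference in DC1 and DC2, 7 to 8 and 4 to 5 for monocytes against CD8+ and CD4+ DCs, and 4 to 6 for the interaction. The LN lineage count was 2 without splenic CD4+ replicate 1 or 3 or LN CD103+ replicate 1, and 3 without CD4+ replicate 2. The DC2 organ count was 2 without LN CD11b+ replicate 1 and 3 without replicate 2. The pathway lists, which were not counted for any difference, gave 44 to 50 called genes for spleen DC1 against DC2. In the same order from there, they gave 6 to 11, 63 to 73, 24 to 36, 34 to 44, 37 to 54 and 26 to 36. The members' share of TPM ranged over 0.201% to 0.208% in splenic CD8+ DCs, 0.0939% to 0.101% in CD4+ DCs, 0.0759% to 0.0879% in LN CD103+ DCs, 0.0941% to 0.101% in LN CD11b+ DCs and 0.134% to 0.145% in monocytes. Of single member values, 1004 kept their status, called or not called, with 1 library left out, 15 gained a call and 31 lost one. Under the other alternatives 660 kept their status, 29 gained a call and 11 lost one. Values called in neither fit are among those that kept their status, so these are not counts of kept calls. The blocks also called Pdia4 higher in monocytes than in splenic CD4+ DCs (adjusted p = 0.0357 and 0.034, edgeR), where numbers were not taken to pair libraries, with correlations of -0.0353 to 0.0399. With 3 libraries a group, small differences at the depth given above may have been missed.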

Other observations

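Genes of ER-associated degradation, which returns misfolded proteins to the cytosol, were called in both directions in the DC1 organ comparison. Of 14 tested, 6 were lower and 4 higher in LN DC1, beside 21.8% and 23.8% of all genes, and in DC2 1 was lower and 5 higher, beside 13.8% and 19.3%. The genes named here were chosen after their values were seen. Selenos was lower in LN DC1 (log2 fold change -1.51, adjusted p = 7.8e-06 by edgeR), as were Syvn1, the ubiquitin ligase HRD1 (-1.04, 0.0104), and Derl3 (-2.65, 0.041). Sel1l, the partner of HRD1, was higher in LN DC1 (1.12, 0.00048) and in LN DC2 (0.70, 0.0211), as were Os9, a lectin that hands over misfolded glycoproteins (1.12, 0.000103 and 0.81, 0.00309), and Selenok (1.08, 2.28e-05 and 1.03, 7.04e-05). The ERSE letters given above were found in the promoters of 2 of 13 ERAD genes with an entry, Derl3 and Syvn1, and of 5 of 20 other chaperone genes.

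Of 7 tested mRNAs known as substrates of IRE1 (of 8 listed), 0 were higher and 1 lower in splenic CD8+ than in CD4+ DCs (all genes: 13.1% and 14.4%). Between the LN lineages 1 was higher and 1 lower (all genes: 5.22% and 7.73%). In LN, 3 were higher and 1 lower in DC1 and 4 higher and 1 lower in DC2 (all genes: 23.8% and 21.8%, then 19.3% and 13.8%), and 0 had a called interaction by edgeR (0 at an unadjusted p below 0.05, 0 by DESeq2 and 1 by limma on TPM). In monocytes 3 were higher and 0 lower than in CD8+ DCs (all genes: 20.4% and 21.7%), and 4 higher and 0 lower than in CD4+ DCs (23.8% and 24.2%). Counts of 0 here were also 0 by DESeq2, and at an unadjusted p below 0.05 in edgeR 1 substrate was higher in splenic CD8+ than in CD4+ DCs and 0 were lower in monocytes. Some of these substrates are weak readouts. In splenic CD8+ and CD4+ DCs, Scara3 was at 0.0763 and 0 CPM, Sparc at 0.237 and 0.394 and Pdgfrb at 0.483 and 0.447. Exons of Bloc1s1 overlap those of Rdh5 over 55.9% of their bases. Tapbp, the tapasin gene, chosen after its values were seen, was higher in LN DC1 (log2 fold change 1.73, adjusted p = 1.46e-05) and in LN DC2 (1.53, 9.38e-05). Of 13 other sensors and signalling genes, 3 were higher and 5 lower in LN DC1, 2 higher and 2 lower in LN DC2, 4 higher and 3 lower in monocytes than in CD8+ DCs, and 3 and 3 against CD4+ DCs, counts to be read against the same shares of all genes.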
